A study of Bos taurus with 6 samples.

Results

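The urokinase plasminogen activator system was followed through its core pair, the protease urokinase (PLAU) and its cell surface receptor (PLAUR), across 6 agarose cultures of bovine mesenchymal stem cells (MSCs) taken from bone marrow. Every probe set whose only annotated gene symbol was PLAU or PLAUR was taken, which gave 1 probe set for each of the 2 genes, out of 24016 probe sets and 9155 named genes on the Affymetrix bovine array. The PLAU probe set is annotated to transcript NM_174147 and Entrez gene 281408, and the PLAUR probe set to NM_174423 and Entrez gene 281983. With a single probe set each, neither gene had a second reading on the array.

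Control cultures spent 3, 21 or 42 days in defined medium that lacked TGF-beta3. This transforming growth factor is given to MSCs to turn them into cartilage-forming cells. Chondrogenic cultures received TGF-beta3 for 21 or 42 days and were left free of load. A further construct grew unloaded with TGF-beta3 for 21 days and then received 21 days of dynamic compression with TGF-beta3 still present, ending at day 42. Each condition was measured on 1 array, so no value below has a replicate and precision is limited by how few arrays there are.

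Urokinase is a serine protease that cuts plasminogen into plasmin, a broad protease that dissolves fibrin, cuts matrix proteins and activates some matrix metalloproteinases. Its receptor is tethered to the outer membrane by a lipid anchor, belongs to the Ly6/uPAR family of three-finger proteins, holds urokinase at the cell surface and also binds vitronectin and works beside integrins. Serpins block urokinase and plasmin, and endocytic receptors of the low density lipoprotein receptor family take up blocked urokinase. Chondrocytes and synovial cells are known to make urokinase, and plasmin has been studied in joints for its part in matrix breakdown.

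The arrays were alike in some respects and not in others. Between 54.9% and 65.3% of probe sets lay above a floor of 15.1, the signal at the 40th percentile of all values, below which values were set to the floor. Hybridisation spikes, foreign transcripts added in fixed amounts, had a median signal of 12608 on the unloaded and 9456 on the loaded array of day 42 with TGF-beta3, against 4519 to 6037 on the other 4. Median signals of ribosomal protein probe sets moved in the same direction, with 10353 and 7091 against 3557 to 4778. These shifts stand beside every day 42 value with TGF-beta3, and their part in the results was not tested other than by the rescaled values given below.

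Cells of other types were looked for through their markers. Of 9 mesenchymal stromal markers, all measured, 4 to 7 lay above the floor on any array, and LEPR and NGFR lay under it on all 6. Macrophage and myeloid markers, which include cells known to carry PLAUR, had 11 of 13 genes measured and a summed signal of 319 to 656 without TGF-beta3 and 87.2 to 235.2 with it, the opposite direction to PLAU and PLAUR. Of 9 myeloid markers tested, CD68, AIF1 and CD53 fell and none rose by limma (none at an unadjusted p under 0.05 either), ITGAM lay under the floor on every array, and LAPTM5 was higher with TGF-beta3 at day 42 (76.8 against 29.2). CSF1R was above the floor only on the unloaded day 21 and day 42 arrays with TGF-beta3 (17.5 and 29.3). ITGB2 was above it only on the unloaded day 42 array with TGF-beta3 (21.1). The endothelial genes CDH5, KDR and VWF lay under the floor on every array too, while the summed signal of the 7 endothelial markers was 63.7 to 132 without and 245 to 422 with TGF-beta3, of which ERG gave 30.3 to 80.2 and 210 to 388. Chondrocyte markers (7 of 8 measured) summed to 8201 to 10571 without and 35147 to 60862 with TGF-beta3, adipocyte markers (5 of 6) to 5057 to 15415 and 461 to 921, and smooth muscle markers (5 of 5) to 237 to 786 and 1359 to 5205, with MYH11 under the floor throughout. By the limma fit all 7 chondrocyte markers rose, 4 of 4 smooth muscle markers tested rose, and of 2 endothelial markers tested ERG rose and TEK did not pass (-0.37 ± 0.59). All 5 adipocyte markers tested fell. Of 7 mesenchymal stromal markers tested, VCAM1, CXCL12 and MCAM fell and NT5E rose. The controls themselves changed with time. Without TGF-beta3 the adipocyte markers summed to 5057, 12730 and 15415 at days 3, 21 and 42, though LPL went down (1854, 1217 and 1094). Among chondrocyte markers COL2A1 went from 55.5 at day 3 to 2739 at day 21 without TGF-beta3, while COL11A1 (4037 to 3603) and HAPLN1 (3682 to 3029) went down. The part of these cells in the results was not tested. In whole cultures, a gain in the number of cells that make a transcript and a gain per cell cannot be told apart.

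The first comparison asked how TGF-beta3 altered the pair. PLAU had signals of 82.0, 33.1 and 30.3 at days 3, 21 and 42 without TGF-beta3, against 567 at day 21, 203 at day 42 and 655 at day 42 with loading in its presence. All 3 arrays with TGF-beta3 lay above all 3 without it, and the lowest of the former was 203 against a highest of 82.0 in the latter. PLAUR had signals of 94.1, 89.5 and 123 at days 3, 21 and 42 without TGF-beta3, against 2085 at day 21, 1178 at day 42 and 1479 at day 42 with loading. Its groups did not overlap either, and for both genes they stayed apart under all 5 scalings of the arrays. For PLAU the gap was then narrow in places. Its lowest signal with TGF-beta3 was 106 against a highest of 89.7 without it when scaled to spikes. When scaled to ribosomal protein genes it was 105 against 94.3. Of the 18825 probe sets above the floor on any array, 14.6% had all 3 arrays with TGF-beta3 above the 3 without, so the lack of overlap alone sets neither gene apart.

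**Figure D1:**
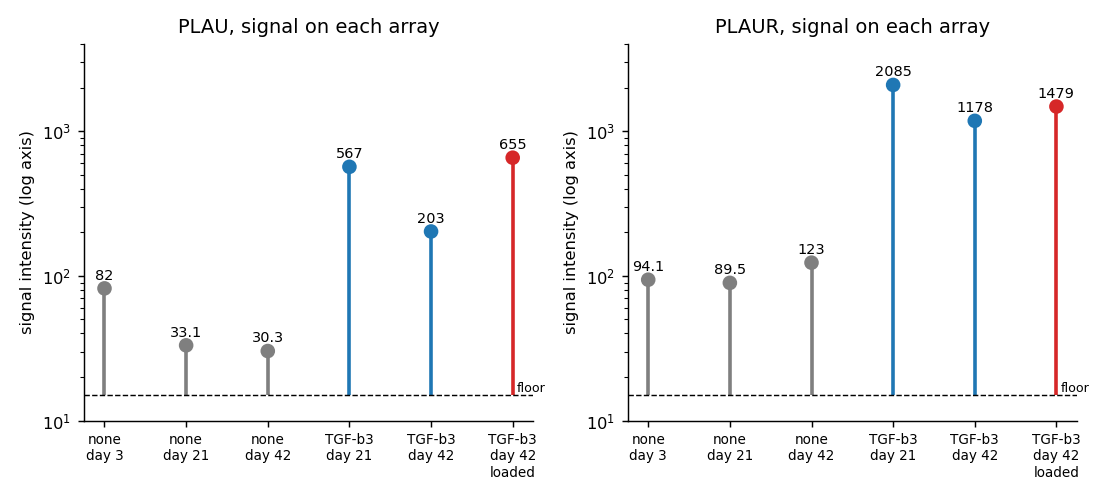
Signal intensity of the PLAU (left) and PLAUR (right) probe sets on each of the 6 arrays, on log axes, with grey points for cultures without TGF-beta3, blue for unloaded cultures with it and red for the loaded culture; the dashed line is the floor of 15.1. PLAU lies between 30.3 and 82.0 without TGF-beta3 and between 203 and 655 with it, and PLAUR between 89.5 and 123 and between 1178 and 2085.

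Both genes rose with TGF-beta3 over days 21 and 42, in a limma fit to the 4 unloaded arrays of those days with a term for day. PLAU rose by 3.42 ± 0.61 in mean log2 signal (standard error, 2 arrays a side, limma adjusted p = 3.55e-05). PLAUR rose by 3.90 ± 0.38 on the same scale (limma adjusted p = 1.55e-11). At an adjusted p under 0.05, 5.84% of the 14839 probe sets tested rose and 7.33% fell. By mean log2 difference PLAUR was 48th and PLAU 78th from the highest of these probe sets. Only 1 residual degree of freedom was left to each probe set beside 49.8 from the prior, so these p-values draw on the spread of other probe sets of like signal, not on repeated cultures. With every array rescaled to its spikes, the PLAU difference was 2.61 and its call was lost (adjusted p = 0.0534 by limma), while PLAUR kept its call at 3.09 (adjusted p = 0.026 by limma).

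By day, the differences were larger at day 21 than at day 42 for both genes. At day 21 the log2 difference was 4.10 for PLAU and 4.54 for PLAUR, where 13.3% of 15466 probe sets were higher by at least 1. A difference at least as high as that of PLAU was found in 0.323% of probe sets at day 21 and 2.32% at day 42, and one at least as high as that of PLAUR in 0.200% and 1.02%. At day 42 the log2 difference was 2.74 for PLAU and 3.25 for PLAUR, where 24.5% of 16874 probe sets were higher by at least 1. The spikes differed by log2 0.23 on the day 21 pair and by 1.38 on the day 42 pair, in the same direction as the genes. Rescaled to spikes, the day 42 differences were 1.36 and 1.87, and rescaled to ribosomal protein genes 1.42 and 1.93. With 1 array on each side, whether the effect differed between the days was not tested.

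The second comparison asked how dynamic compression altered the pair in the presence of TGF-beta3. PLAU was 3.23-fold higher on the loaded than on the unloaded day 42 array (655 against 203, log2 1.69), and 10.2% of 17448 probe sets were higher there by at least log2 1. A share of 2.80% of probe sets had a difference as large as that of PLAU or larger. PLAUR was 1.26-fold higher (1479 against 1178, log2 0.33), under the size rule of log2 1. The spikes were lower on the loaded array by a log2 of -0.41, the opposite direction. Rescaled to spikes the loading difference was 2.11 for PLAU and 0.74 for PLAUR, and rescaled to ribosomal protein genes 2.24 and 0.87. No p-value can be given for single arrays, and the smaller shift of the receptor than of the protease was not tested.

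The same unloaded day 42 array also served the comparison of days with TGF-beta3, so a low value there raises one difference and lowers the other. PLAU was lower at day 42 than at day 21 by a log2 of -1.48, and PLAUR by -0.82, where 14.1% of 16859 probe sets were lower by at least 1. Rescaled to spikes the differences were -2.74 and -2.08. Set against day 21 in its turn, the loaded array gave log2 differences of 0.21 for PLAU and -0.50 for PLAUR, where 15.1% of 16605 probe sets were higher and 9.97% lower by at least 1. The loaded culture thus had a PLAU signal near that of day 21, while the unloaded day 42 culture had the lowest of the 3 with TGF-beta3 for both genes. Under all 5 scalings the unloaded day 42 culture stayed the lowest of the 3 for both genes, but which of the loaded and the day 21 arrays had the higher PLAU signal turned under median centring, spikes and ribosomal protein genes.

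**Figure D2:**
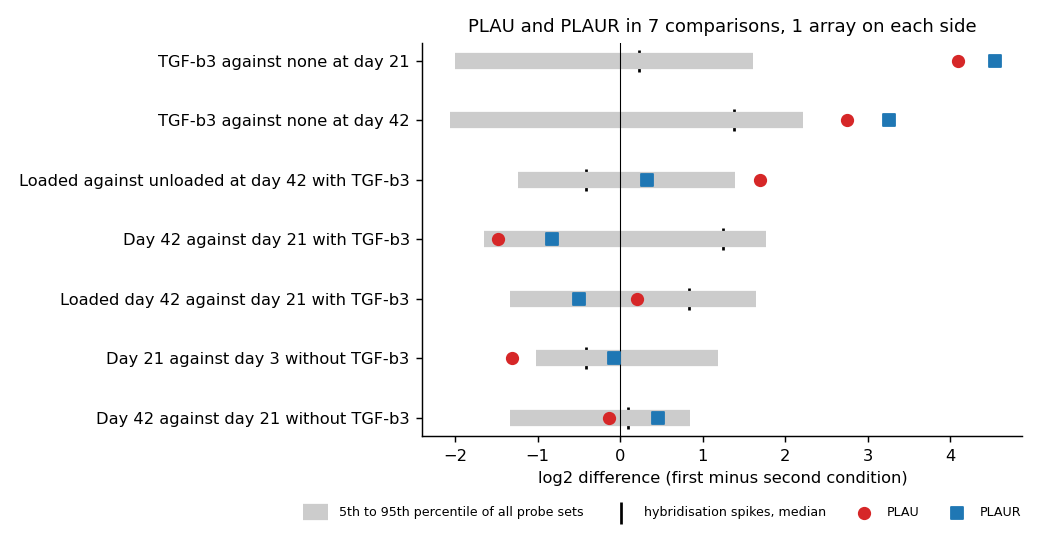
Log2 differences of PLAU (red circles) and PLAUR (blue squares) in 7 comparisons of 1 array with another; grey bars span the 5th to the 95th percentile of all probe sets compared and black ticks mark the median of the hybridisation spikes. Both genes lie to the right of the grey bar with TGF-beta3 at days 21 (4.10 and 4.54) and 42 (2.74 and 3.25), PLAU alone does under loading (1.69), and PLAU lies to its left from day 3 to day 21 without TGF-beta3 (-1.31).

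Without TGF-beta3, PLAU alone of the pair passed the size rule between any neighbouring days, and whether the genes differed in this was not tested. PLAU was lower at day 21 than at day 3 by a log2 of -1.31 (33.1 against 82.0), where 5.2% of 15054 probe sets were lower by at least 1. PLAUR differed by -0.07 between the same arrays. From day 21 to day 42 the differences were -0.13 for PLAU and 0.46 for PLAUR, both under the size rule, which 3.29% of 14737 probe sets passed upwards and 10.1% downwards. The PLAU signals of 33.1 and 30.3 lie close to the floor of 15.1, and the pooled standard deviation of the fit was log2 0.61 for PLAU against 0.38 for PLAUR. Rescaled to spikes, the PLAU difference from day 3 to day 21 was -0.89, under the size rule. In order of PLAU signal the arrays ran from day 42 and day 21 without TGF-beta3, which differ by less than the pooled standard deviation of log2 0.61, through day 3, then unloaded day 42, day 21 and loaded day 42 with TGF-beta3, of which the last pair also differ by less than that. For PLAUR, with a pooled standard deviation of 0.38, the order was days 21, 3 and 42 without TGF-beta3, of which days 21 and 3 differ by less than it, then unloaded day 42, loaded day 42 and day 21 with TGF-beta3, where the unloaded and loaded arrays differ by less than it. A difference between single arrays varies more than this standard deviation, which is that of 1 array. The day 3 and loaded arrays were also outside the fit. Whether the other steps in these orders are real was therefore not tested.

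**Figure D3:**
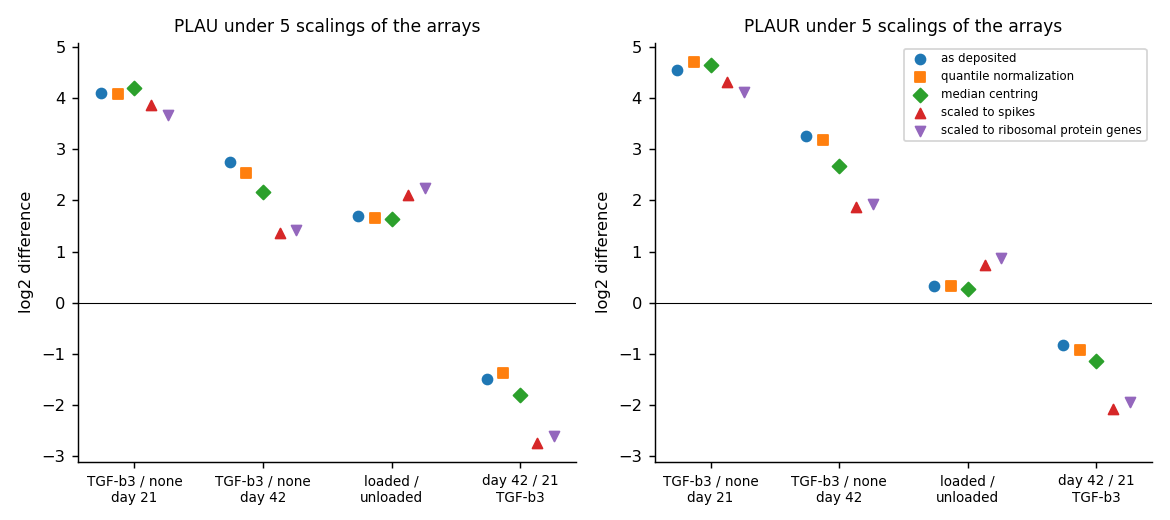
Log2 differences of PLAU (left) and PLAUR (right) in 4 comparisons under the deposited scaling and 4 others, marked by colour and shape. The day 21 differences with TGF-beta3 move little (3.67 to 4.19 for PLAU), the day 42 differences drop from 2.74 to 1.36 for PLAU and from 3.25 to 1.87 for PLAUR with scaling to spikes, and the loading difference of PLAU lies between 1.63 and 2.24.

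Other genes of plasminogen activation were set beside the pair through 8 lists. Over the lists, 66 genes were tested, of which 12 rose (18.2%) and 6 fell (9.09%), with a median log2 difference of 0.21. Among all 6835 genes tested, each by its brightest probe set, 7.11% rose and 7.7% fell, with a median of 0.135. Over all probe sets the counts depended on the settings, with 866 risen and 1088 fallen in the main fit. They were 478 and 1005 with median centring, 175 and 994 with scaling to spikes, and 252 and 1840 with scaling to ribosomal protein genes. Fewer rises under these scalings are therefore not particular to the lists. The counts over the lists moved as follows. With median centring 7 rose and 7 fell. With scaling to spikes 3 rose and 6 fell, and with scaling to ribosomal protein genes 3 rose and 11 fell. Without a variance trend 5 rose and 2 fell, and with each gene read by the median over its probe sets 4 rose and 3 fell. With the day term dropped and all 4 arrays kept, 5 rose and 3 fell, and single arrays were left out of that fit in turn. Then 4 rose and 0 fell without the day 21 control (10 and 3 at an unadjusted limma p under 0.05), 4 rose and 1 fell without the day 42 control, 11 rose and 6 fell without the unloaded day 42 culture given TGF-beta3, and 18 rose and 11 fell without the day 21 culture given it.

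Of the substrate and the other activators of the system, only PLAT had signal enough to be tested. Plasminogen (PLG), made mainly by the liver, had a signal of 15.5 on the unloaded day 42 array with TGF-beta3, just above the floor, and lay under the floor on the other arrays. Tissue plasminogen activator (PLAT), the other main activator, had signals of 75.5, 24.7 and 55.0 at days 3, 21 and 42 without TGF-beta3, 27.5 at day 21 with it, and 8.97 and 13.9 on the unloaded and loaded day 42 arrays with it, both under the floor. PLAT did not pass, at -0.85 ± 0.63 in mean log2 signal (limma adjusted p = 0.415). F12, which starts contact activation, lay under the floor on every array. ST14 and HGFAC, proteases that can activate urokinase or the hepatocyte growth factor precursor, were above it on the loaded array alone, at 16.4 and 21.4.

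Among the inhibitors of activators and plasmin, 6 of 11 genes were measured and none of the 5 tested by limma passed in either direction (SERPINB8 and A2M were lower at an unadjusted p under 0.05). Protease nexin 1 (SERPINE2), which also blocks urokinase, had signals of 1677, 1376 and 2159 without TGF-beta3 at days 3, 21 and 42 and of 1001, 2257 and 1925 at day 21, day 42 and loaded day 42 with it, so that its groups overlapped. Its mean log2 difference was -0.20 ± 0.34. The plasmin inhibitor SERPINF2 had a mean difference of 0.88 ± 0.68, with 130 against 51.0 at day 42 and 196 with loading. SERPINB6 and SERPINB8, intracellular serpins, had 0.90 ± 0.51 and -0.95 ± 0.36, and A2M, a broad protease trap, -1.36 ± 0.67, a bound at day 21. SERPINI1, known from neurons as an inhibitor of tissue plasminogen activator, was above the floor on the day 21 array with TGF-beta3 alone, at 35.2. With scaling to spikes and to ribosomal protein genes A2M passed the test, at -2.31 and -2.29.

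Among proteins that hold plasminogen at the cell surface, 1 of 6 tested rose and none fell (none at an unadjusted limma p under 0.05 either). The glycolytic enzyme ENO1, which also binds plasminogen outside the cell, rose by 1.41 ± 0.34 (adjusted p = 0.00248 by limma), with 2437 against 855 at day 21 and 2825 against 1145 at day 42. Its call was lost with median centring and with scaling to spikes or ribosomal protein genes. The annexin A2 and S100A10 pair, a plasminogen receptor, gave mean differences of 0.08 ± 0.36 for ANXA2 and -0.0014 ± 0.37 for S100A10, whose second probe set was lower by -2.24 at day 42. CLEC3B, a plasminogen-binding plasma protein, had 1.52 ± 0.60, a bound, ACTB 0.68 ± 0.38 and HMGB1 -0.66 ± 0.35, and none of these passed. HMGB1 passed with quantile normalization (-0.83) and with scaling to ribosomal protein genes (-1.54).

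Of 9 receptor partners on the cell surface that were tested, 2 fell and none rose (none at an unadjusted limma p under 0.05 either). The epidermal growth factor receptor EGFR, through which the urokinase receptor is known to signal, fell by a mean log2 of at least 3.48 (adjusted p = 0.000345 by limma), from 174 and 164 at days 21 and 42 to below the floor with TGF-beta3. The caveolar protein CAV1 fell by 1.36 on the log2 scale (adjusted p = 0.00618 by limma), from 3761 to 2161 and from 4126 to 1085. Integrin subunits that pair in vitronectin receptors did not pass, with ITGAV at 0.14 ± 0.37, ITGB3 at 0.11 ± 0.42 and ITGB5 at 0.83 ± 0.44, and a dimmer ITGB5 probe set went the other way (-0.95 and -0.66 at days 21 and 42). ITGA5 and PDGFRB had 0.41 ± 0.52 and 0.33 ± 0.72, and ITGB1 -0.00015 ± 0.35. Vitronectin itself (VTN), the matrix ligand of the receptor, lay under the floor on every array.

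Among the receptors of endocytic clearance, 2 of 7 rose and none fell (IGF2R and VLDLR were lower at an unadjusted limma p under 0.05). MRC2, the collagen receptor also known as the urokinase receptor-associated protein, had signals of 235, 128 and 128 without TGF-beta3 at days 3, 21 and 42 and of 534, 557 and 655 at day 21, day 42 and loaded day 42 with it. All 3 MRC2 signals with TGF-beta3 lay above the 3 without it, as for 14.6% of the 18825 probe sets above the floor on any array. MRC2 rose by 2.09 ± 0.41 (adjusted p = 0.000188 by limma), a call lost with median centring and with scaling to spikes or ribosomal protein genes. The sorting receptor SORL1 rose by 2.43 ± 0.65 (adjusted p = 0.00664 by limma), a call lost with scaling to spikes or ribosomal protein genes. LRP8 had 1.63 ± 0.61, a bound, and VLDLR, an endocytic receptor of the same family, -0.72 ± 0.35. Dimmer VLDLR probe sets above the floor went the other way at day 21 (1.17 and 0.84) but not at day 42 (-0.70 and -1.25). The mannose 6-phosphate receptors IGF2R and M6PR had -0.86 ± 0.43 and -0.88 ± 0.58. LRP1, the main clearance receptor, was not analysed here.

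Other proteins of the three-finger fold to which the receptor belongs did not move as one. Of 7 tested, LY6E rose by a bound of 1.98 ± 0.65 (adjusted p = 0.0333 by limma), and the type II TGF-beta receptor TGFBR2 rose by 1.43 ± 0.34 (adjusted p = 0.00209 by limma). The activin receptor ACVR2A fell by 1.82 on the log2 scale (adjusted p = 0.000208 by limma), with 274 against 993 at day 21 and 217 against 744 at day 42. TGFBR1, ACVR1 and BMPR1A had 0.85 ± 0.48, -0.68 ± 0.46 and -0.28 ± 0.38. A dimmer ACVR1 probe set went the other way at days 21 and 42 (0.67 and 0.57), and a dimmer BMPR1A probe set did so at day 42 (-0.10 and 1.81). The call of TGFBR2 was lost with median centring, spikes and ribosomal protein genes, where its difference shrank to between 0.55 and 1.19. With spikes ACVR2A had a larger difference of -2.62 but no call (adjusted p = 0.0729 by limma).

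Proteins that plasmin cuts or activates were mixed, with 3 of 14 higher and 2 lower by the test. The insulin-like growth factor binding proteins IGFBP5 and IGFBP3 went opposite ways, at 4.74 ± 0.63 and -7.65 ± 0.44, both bounds, and the angiogenic factor VEGFA rose by 4.005 ± 0.36. Fibronectin (FN1) rose by 1.42 ± 0.42 (adjusted p = 0.0151 by limma), a call lost with scaling to spikes or ribosomal protein genes. Its other, dimmer probe set differed by far more, at 4.55 at day 21 and 7.86 at day 42. The laminin chain LAMC1 fell by 1.24 on the log2 scale (adjusted p = 0.0109 by limma), and with scaling to spikes had a larger difference of -2.05 but no call (adjusted p = 0.152 by limma). The metalloproteinases that plasmin can activate did not pass: MMP2 had -0.26 ± 0.35, MMP3 a bound of 1.09 ± 0.62 and MMP14 -0.99 ± 0.47. MMP13, at -0.83 ± 0.74, had opposite signs by day, with 0.77 at day 21 and a bound of -2.43 at day 42. Hepatocyte growth factor (HGF), whose precursor urokinase can cut, had a bound of -1.54 ± 0.66 and its receptor MET a bound of -1.41 ± 0.66. HGF passed the test under all 4 other scalings (-1.79 to -2.32), and MET with ribosomal protein genes (-1.81).

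Transcription factors known from other species to act at the urokinase promoter had 4 of 17 that rose, 1 that fell and a median log2 difference of 1.01, beside the 0.135 of all genes. The AP-1 subunits FOS and JUNB rose by 2.37 ± 0.47 (adjusted p = 0.000205 by limma) and 1.83 ± 0.37 (adjusted p = 0.00028 by limma), while JUN had -0.79 ± 0.36 and passed only with quantile normalization among the scalings (-0.88). The 4 other JUN probe sets disagreed in size and direction, with -2.18 to -3.78 at day 21 and -1.42 to 2.0 at day 42. FOS had signals of 130, 90.5 and 73.5 without TGF-beta3 at days 3, 21 and 42 and of 376, 470 and 352 at day 21, day 42 and loaded day 42 with it. The hypoxia factor HIF1A rose by 1.61 ± 0.36 and the ETS factor ETS2 by 1.40 ± 0.44 (adjusted p = 0.0231 by limma), and EGR1 fell by 1.76 on the log2 scale (adjusted p = 0.00434 by limma). By day, EGR1 differed by -3.16 at day 21 but by only -0.37 at day 42. Its dimmer probe set differed by a bound of -1.59 at day 21 and went the other way at day 42 (0.79). The signal transducers SMAD3 and SMAD2 had 1.57 ± 0.56 and -0.99 ± 0.38 and did not pass. With scaling to spikes or ribosomal protein genes none of the 4 rises was called by limma, and with median centring those of JUNB and ETS2 were lost; with scaling to spikes EGR1 had a larger difference of -2.57 but no call (adjusted p = 0.0898 by limma).

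**Figure D4:**
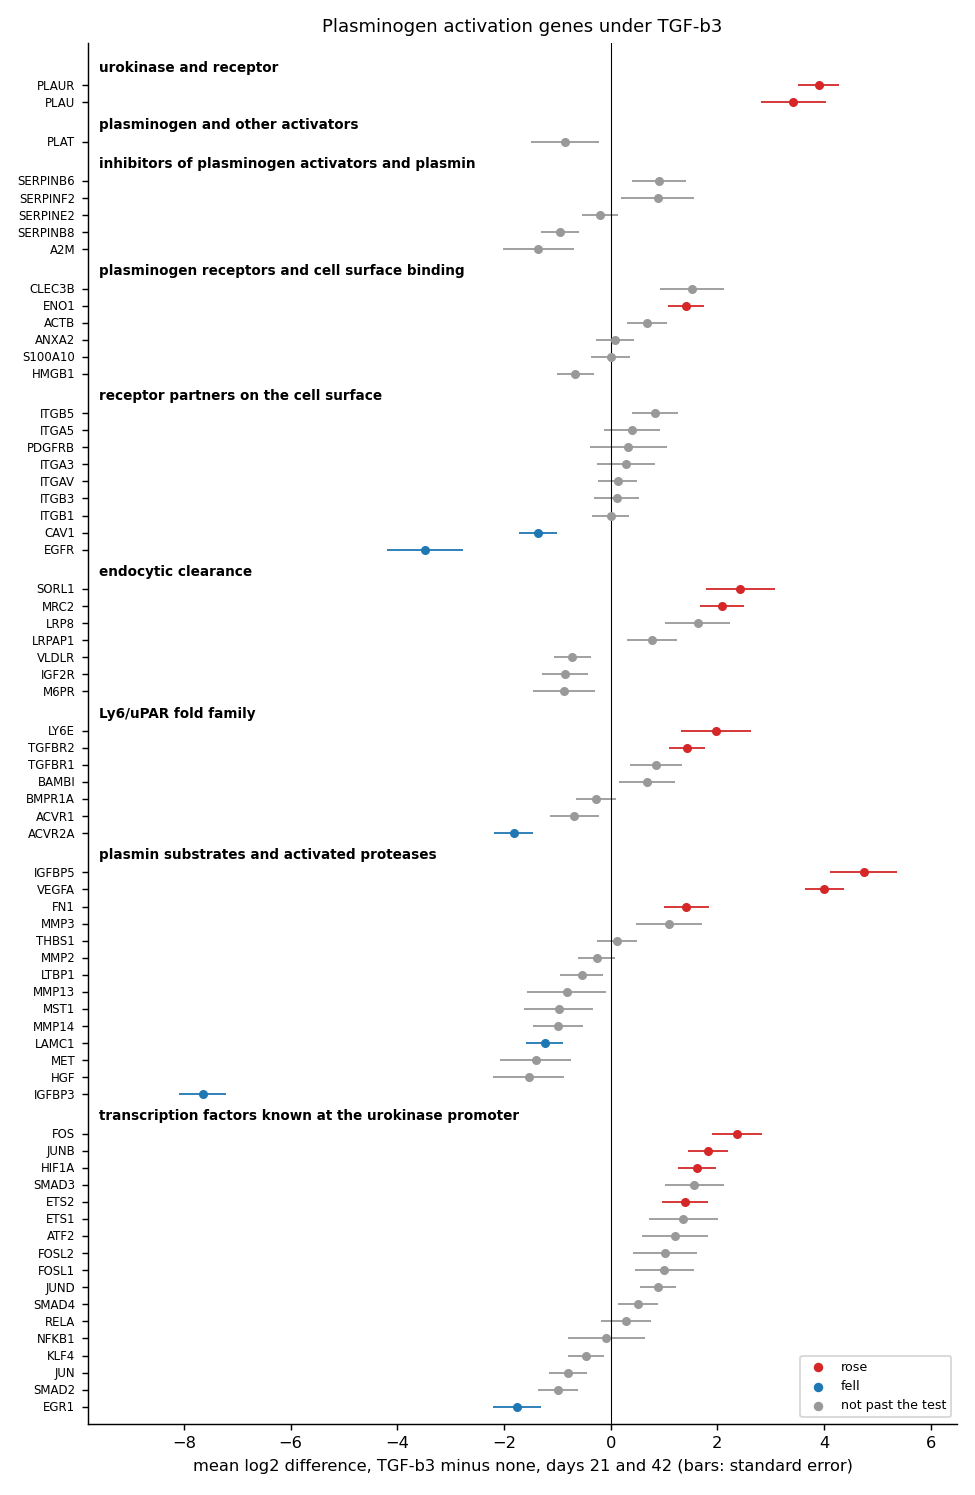
Mean log2 difference (TGF-beta3 minus none, days 21 and 42) of PLAU, PLAUR and the 66 other tested genes of plasminogen activation, by list, with bars for the standard error from the limma fit; red rose, blue fell, grey did not pass at an adjusted p under 0.05. PLAUR (3.90) and PLAU (3.42) lie to the right of all other genes shown except VEGFA (4.005) and IGFBP5 (4.74).

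Under loading the shares of the other list genes called were near the background. Of 73 compared, 7 (9.59%) were higher and 3 (4.11%) lower by at least log2 1 on the loaded array, where 8.41% of 7703 genes were higher and 7.41% lower. Among those higher with PLAU were the metalloproteinase MMP3, with a signal of 182 against 48.1 (log2 1.92), and MMP13, at 45.4 against 5.90, a bound of 1.58. MMP2 (0.02) and MMP14 (0.49) were under the size rule, as was a bound for MMP1 (0.22), and MMP9 was under the floor on both arrays. The other MMP14 probe sets disagreed, with 281 against 121 (log2 1.22) on one, which passed the size rule, and 0.24 on the other. The others higher were BAMBI (1.87), FOSL1 (1.92), NFKB1 (1.25), LAMC1 (1.19) and SERPINB8 (1.13), and those lower were CLEC3B (a bound of -1.92), EGR1 (-1.39) and ITGA3 (a bound of -1.24). On its other 2 probe sets, at or near the floor, MMP3 differed by -0.01 and a bound of 0.20, and MMP13 on its other probe set by a bound of 0.08. None of the other LAMC1 probe sets passed the size rule, with 0.29 to 0.97 on those above the floor.

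The genes whose pattern over the 6 arrays was most like that of each gene were sought among 6669 others above the floor on at least 3 arrays, by the root mean square difference of log2 signals after each gene's own mean was subtracted. For PLAU the 5 nearest were INHBA, an activin subunit (0.36), POSTN, a matrix protein (0.39), DKK1, a Wnt inhibitor (0.41), PLK2, a kinase (0.45), and THBD, thrombomodulin, which turns thrombin towards anticoagulation (0.50), where the median over all candidates was 1.77. Each of the 5 was lower at day 21 than at day 3 without TGF-beta3 and higher on the loaded than on the unloaded array, by log2 0.72 to 1.84. They were chosen for likeness to PLAU on these same arrays, so these shared shifts are no separate finding. At day 21 without TGF-beta3 DKK1 (12.5), PLK2 (13.4) and THBD (6.17) lay under the floor, so their differences from day 3 are bounds. INHBA had signals of 91.1, 41.9 and 26.2 without TGF-beta3 at days 3, 21 and 42 and of 443, 301 and 494 at day 21, day 42 and loaded day 42 with it. For PLAUR the 5 nearest were MFAP4, a microfibril protein (0.24), COX6B2, a subunit of cytochrome oxidase (0.28), CHAC1, which breaks down glutathione (0.37), CSRP2, a LIM domain protein of smooth muscle (0.43), and UBE2C, which acts in mitotic exit (0.48), where the median was 1.95. Of these, MFAP4, CHAC1 and UBE2C were under the floor on all 3 arrays without TGF-beta3. COX6B2 was under it at days 3 and 21 (8.03 and 11.58) and just above it at day 42 (15.45). The likeness of these genes thus rests partly on the floor. CSRP2 was above it on all 6 arrays (132 to 182 without and 1314 to 2022 with TGF-beta3). PLAUR stood 36th from PLAU and PLAU 44th from PLAUR, at a difference of 0.74, so neither gene was among the 5 nearest of the other, though each lay well under the median distance.

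**Figure D5:**
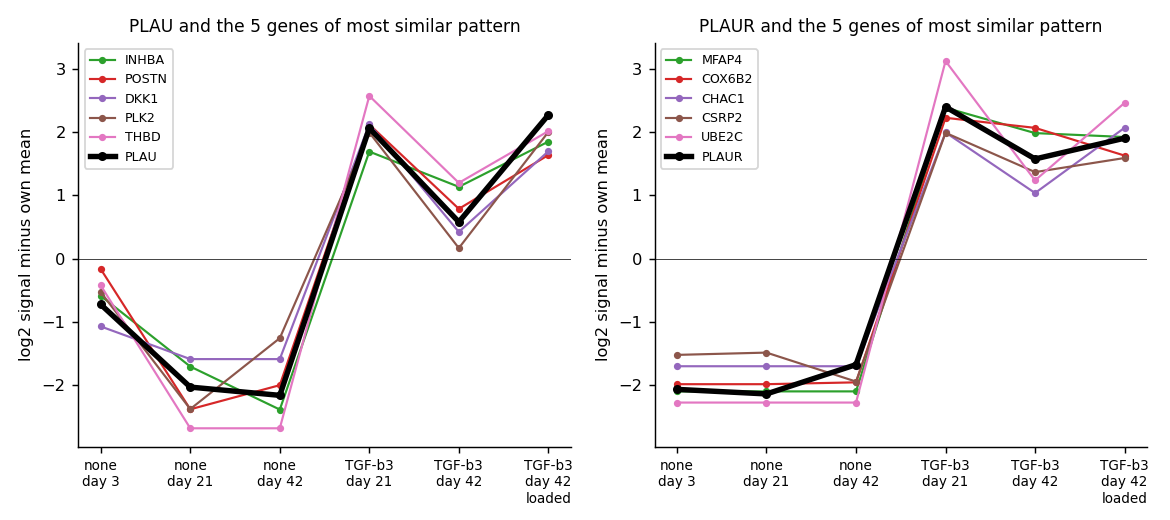
Log2 signal minus each gene's own mean on the 6 arrays for PLAU (left, black) and PLAUR (right, black) with the 5 genes of most similar pattern in colour, values under the floor being set to it. PLAU and its neighbours are lower at day 21 than at day 3 without TGF-beta3 and higher on the loaded than on the unloaded day 42 array. PLAUR and its neighbours lie nearly flat without TGF-beta3, where all of these neighbours but CSRP2 lie at or near the floor.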

How the data were processed

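Total RNA from 6 cultures was amplified by ribo-SPIA, biotin-labelled and hybridised to Affymetrix bovine arrays, per the labels' protocols. The authors deposited a linear signal intensity for each probe set. The submitters' processing notes name MAS5, without a version; each array's mean, trimmed by 2% at both ends, was 150.0 to 150.1. From 24128 probe sets 112 controls were left out. Gene names came from the platform annotation (13292 probe sets with 1 symbol, 86 with several, 10638 unnamed), and all 13263 Entrez identifiers found in RefSeq gave the same symbol. The files name no genome build, so no coordinates are given.

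Signals under the 40th percentile, 15.1, were set to that floor, and log2 values were taken. A difference with 1 side under the floor is a bound. Pairs of arrays were compared by size (log2 of at least 1, among probe sets above the floor on either array). TGF-beta3 was tested with limma 3.58.1 in R 4.3.3 on the 4 unloaded arrays of days 21 and 42 (a term for day, variance trend, Benjamini-Hochberg over 14839 probe sets, each over the floor on 2 or more of these arrays), a step tested on simulated data. A gene was read by its brightest probe set. Pooled standard deviations are those of this fit. The members and lists were chosen with earlier results of these data known. Genes named were all measured activators and inhibitors, members of other lists past the test or among the 3 highest or 3 lowest, and the 5 nearest patterns; the second probe sets, MMP2, MMP3, MMP13, MMP14, SMAD3, VTN, ITGAV, ITGB3, FOSL1 and FOSL2 were named after their values were seen. Alternatives covered scaling, floor, variance prior, day term, probe set choice and arrays left out. Tables were handled in pandas 2.3.3 and numpy 2.4.6 under Python 3.11.15 and plotted in matplotlib 3.10.9.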

Additional observations from a re-analysis of the deposited data

Results flagged for a closer look

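Under the same contrast of day 42 minus day 21, 3 genes had differences of opposite sign with and without TGF-beta3, each on 1 array a side, and the contrast between them was not tested. The spikes differed by log2 1.25 on the pair with TGF-beta3 and by 0.10 on the pair without. PLAUR had a log2 difference of -0.82 with TGF-beta3 and 0.46 without it, both under the size rule of log2 1. MMP13 had a bound of -2.01 with TGF-beta3 and 1.19 without it. FOSL2, an AP-1 subunit, had 1.72 with TGF-beta3 and -1.37 without it, but a dimmer FOSL2 probe set had signals of 17.8 and 17.4 at days 21 and 42 without TGF-beta3 and so showed no such difference.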

How the results depend on the processing

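PLAU and PLAUR rose with TGF-beta3 under every alternative run except 1: with scaling to spikes PLAU was 2.61 (adjusted p = 0.0534 by limma). Without 1 array and the day term the PLAU difference lay between 2.68 and 4.16 and that of PLAUR between 3.49 and 4.31. No paired analysis was possible because each condition has 1 array, other than the pairing by day that the day term makes; without that term PLAU and PLAUR kept their calls (adjusted p = 0.0423 and 0.0082 by limma). Of all probe sets, 866 rose and 1088 fell, against 478 risen with median centring, 175 with spikes, and 252 risen and 1840 fallen with ribosomal protein genes. The counts were 416 and 614 without a variance trend, 207 and 363 without the day term, 120 and 177 for medians of probe sets, 545 and 561 for 1 probe set per gene (fewer units tested), and 161 to 1757 and 179 to 2016 without 1 array and the day term (184 and 186 without the day 21 control, 161 and 179 without the day 42 control, 1757 and 2016 without the day 21 culture with TGF-beta3). For PLAU, raising the floor to the 60th percentile or to a signal of 100 gave bounds of 3.35 and 2.50 at day 21, 1.87 and 1.02 at day 42, as its signals without TGF-beta3 fell under them; from day 3 to day 21 without TGF-beta3 the first gave a bound of -0.56, and the second 0.0, which says nothing since both signals lie under 100. Spikes and ribosomal protein genes gave PLAU 1.36 and 1.42 at day 42 and -2.74 and -2.60 between days with TGF-beta3; spikes gave -0.63 for loaded day 42 against day 21. For PLAUR they gave 1.87 and 1.93 with TGF-beta3 at day 42 (2.67 with median centring), 0.74 and 0.87 under loading, -2.08 and -1.94 between days with TGF-beta3, -1.33 and -1.07 for loaded day 42 against day 21, and 0.35 and 0.32 from day 3 to day 21 without TGF-beta3; ribosomal protein genes gave 4.12 at day 21. The cause of these shifts was not tested. The comparison of the loaded array with day 21, and its alternatives, were chosen after seeing the data. Signals near the floor, as for PLAU without TGF-beta3, limit the size of a fold that can be measured.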

Other observations

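FOSL1, an AP-1 subunit known in other species to act on the urokinase promoter, was picked out after its values were seen. It lay under the floor on all 3 arrays without TGF-beta3 and had signals of 54.6 at day 21, 17.0 at day 42 and 64.1 at loaded day 42 with it, a log2 difference of 1.92 under loading. It did not pass the TGF-beta3 test (1.01 ± 0.56, adjusted p = 0.25 by limma).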
